A study of Mus musculus with 26 samples.

Results

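The 9 genes described here carry the main steps of MHC class I antigen presentation: B2m, H2-K1, H2-D1, Tap1, Tap2, Tapbp, Psmb8, Psmb9 and Nlrc5. They are taken by name, without a threshold on any measured value, although the set was drawn up with earlier results of these data known. They were matched by Ensembl identifier to 9 of the 37991 genes in the table of counts. Of the 9, 8 had counts, and Psmb9 was listed at 0 counts in all 26 libraries. Transcripts were measured by RNA-seq in mice of the rd10 line (B6.CXB1-Pde6brd10/Jrd10), in which a mutation of the rod phosphodiesterase gene Pde6b leads to the loss of rods. All groups carried this mutation, controls included, so that no retina with intact rods entered any comparison.

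Mice were injected intraperitoneally from postnatal day (PN) 9 to PN24, and tissue was collected at PN24. Whole retinas formed 4 experiments. In the first, 2 retinas treated with DZNep, which the labels name as an inhibitor of the histone methyltransferase EZH2, were compared with 4 controls. In the second, 3 treated with UNC1999, another EZH2 inhibitor, were compared with 3 controls. In the third, 2 treated with UNC0642, an inhibitor of the G9A/GLP methyltransferases, were compared with 2 controls. In the fourth, 3 treated with Romidepsin, an inhibitor of histone deacetylases (HDAC), were compared with 3 controls. The fifth experiment used rods isolated by FACS from mice homozygous after a cross of rd10 with B6.Cg-Tg(Nrl-EGFP)1Asw/J, in which the rod-specific Nrl promoter drives EGFP, with 2 libraries from mice given GSK2879552, an inhibitor of the demethylase LSD1, and 2 controls. The labels and the study's methods name saline for the controls, while UNC1999 was given in a mixture of DMSO, PEG300, Tween-80 and saline. For sections of UNC1999 controls the study also speaks of diluent alone. If the controls of the UNC1999 libraries received saline only, the drug and its diluent cannot be told apart. Mice of both sexes were used, and the sex of each library is not given in the sources used here. No library entered more than one comparison. Nothing used here says whether the replicates of a group came from separate litters or days, so that p-values measure the spread between these libraries.

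Class I molecules display peptides from inside the cell to CD8 T cells and to NK cells. Proteins are cut by the proteasome, in which the subunits Psmb8, Psmb9 and Psmb10 can take the places of Psmb5, Psmb6 and Psmb7 to form the immunoproteasome. Tap1 and Tap2 pump the peptides into the endoplasmic reticulum, where tapasin (Tapbp) bridges the pump to the heavy chain (H2-K1, H2-D1), which folds around beta-2 microglobulin (B2m). Nlrc5 is the transcriptional activator of class I genes, and interferons raise the whole set. In the healthy nervous system neurons carry little of it, and microglia and endothelial cells carry more.

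The 22 retina libraries held between 13732959 and 36354094 counts each, and the 4 rod libraries between 7289460 and 19864491. Levels are given as CPM, the count of a gene relative to the total of its library, scaled by the TMM factors of each comparison. A count of 3, taken as the floor of detection, corresponds to 0.0825 to 0.218 CPM in retinas and to 0.151 to 0.412 CPM in rods, for counting error only. The study's methods name the SMART-Seq kit for the rod libraries, whereas the labels name one stranded mRNA kit for all 26, so that the kits may differ and rod levels are set beside those of retinas as a description. All 17 rod markers were detected in every library. In bulk libraries, fewer cells of a type and less RNA per cell cannot be told apart.

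On the NCBIM37 build, B2m lies at chr2:121973422-121978819 and Nlrc5 at chr8:96996663-97051172, where the annotation used for the counts lists it as a lincRNA. The other members lie in the MHC region of chromosome 17. Tapbp is at chr17:34052844-34066235 and H2-K1 at chr17:34132962-34137278 on the minus strand. Psmb9, Tap1, Psmb8 and Tap2 follow each other, with Psmb9 at chr17:34318932-34324697 on the minus strand, Tap1 at chr17:34324498-34334170, Psmb8 at chr17:34334666-34338399 and Tap2 at chr17:34340472-34353266. H2-D1 is at chr17:35399675-35404444. Overlap with exons of other genes covered 18.5% of the exon bases of Tap2 (Gm15821 and Gm20496, opposite strand), 6.84% of those of Psmb8 (Gm20496, opposite strand), 3.87% of those of Tap1 (Psmb9, opposite strand) and 1.85% of those of Tapbp (Zbtb22, same strand). Whether the counting used strand is not given in the sources used here, so that reads from these stretches cannot be assigned with certainty. H2-K1 and H2-D1 are close in sequence to each other and to the H2-Q genes. Reads that fit more than one of these genes may have been left out of the counts or placed in another of them.

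Psmb9 could not be measured. The annotation holds 2 models with this symbol, ENSMUSG00000024337 and ENSMUSG00000092299, on the same strand. They share 3647 exon bases, which is 99.97% of the exon bases of the one and 99.67% of those of the other. Both were at 0 in every library, also in those where the neighbouring Tap1 and Psmb8 had their highest values. A value of 0 over bases that 2 genes share does not show that the transcript was missing, and Psmb9 enters no comparison.

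**Figure D1:**
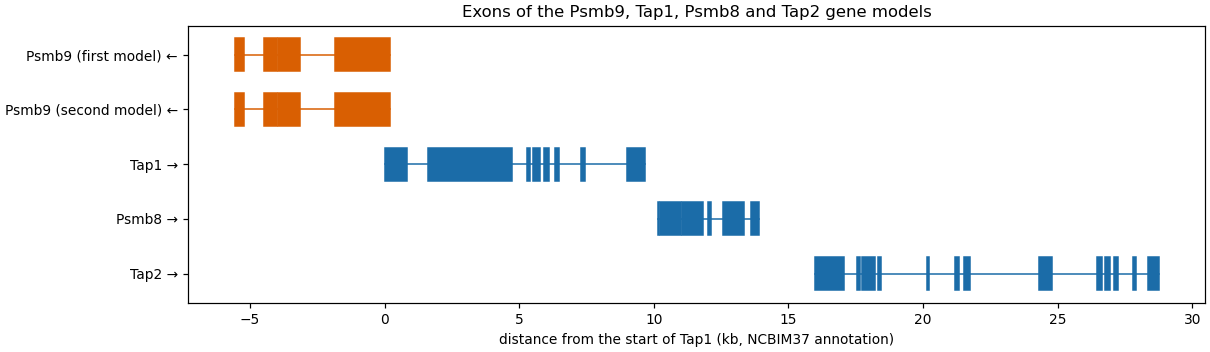
Exons (boxes) of Psmb9, Tap1, Psmb8 and Tap2 in kilobases from the start of Tap1, with an arrow for the direction of transcription. The 2 Psmb9 models cover nearly the same bases and reach past the start of Tap1, which is read in the opposite direction.

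Sequence upstream of the start was taken from RefSeq on the GRCm38.p6 build, which held 7 of the 9 members (all but Tap2 and Nlrc5), over 250 bases. The upstream stretches of the chains that form the displayed complex are shown, since B2m, H2-K1 and H2-D1 had the 3 highest levels per kilobase. Capitals mark matches within the stretch shown to a loose NF-kB type site (GGG and CC with any 5 bases between them), to the interferon-stimulated response element (GAAA and GAAA with any 2 bases between them) or to CCAAT, on either strand, and each stretch ends at the base before the start.
B2m, chr2:122147537-122147686, plus strand: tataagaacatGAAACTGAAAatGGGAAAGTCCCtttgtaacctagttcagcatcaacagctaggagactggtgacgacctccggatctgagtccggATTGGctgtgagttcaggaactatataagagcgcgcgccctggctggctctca
H2-K1, chr17:34000348-34000492, minus strand: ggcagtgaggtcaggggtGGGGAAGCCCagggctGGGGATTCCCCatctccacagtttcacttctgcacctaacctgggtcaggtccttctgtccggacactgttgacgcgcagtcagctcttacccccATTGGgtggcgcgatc
H2-D1, chr17:35262889-35263093, plus strand: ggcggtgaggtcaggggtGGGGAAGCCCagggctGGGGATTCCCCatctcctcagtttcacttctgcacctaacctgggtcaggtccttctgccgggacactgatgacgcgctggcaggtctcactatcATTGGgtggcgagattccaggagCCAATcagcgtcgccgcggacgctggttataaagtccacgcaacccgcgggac

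H2-K1 and H2-D1 shared an unbroken run of 47 bases, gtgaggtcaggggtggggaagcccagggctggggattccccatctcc, which begins 141 bases before the start of H2-K1 and 201 bases before that of H2-D1. On both strands of the 250 bases, the fixed pattern searched for the interferon-stimulated response element matched B2m alone among the 7, at 139 to 130 bases before the start. It matched 2.98% of 32841 promoters of the same length. Looser forms of this element were not searched, so that unmarked stretches, also those of H2-K1 and H2-D1, may hold one. A second NF-kB pattern with fewer free bases (GGG, any 2 bases, TTTCC) also matched B2m alone, on the minus strand, and 1.41% of all promoters. That match overlaps the loose NF-kB match of B2m shown above. The stretch ggggattcccc, held by both H2-K1 and H2-D1, matches the loose pattern and not this one, since it lacks TTTCC. The loose site was found in 5 of the 7 and in 45.8% of all promoters, and CCAAT in 6 of the 7 and in 33.9%. TTCNNNGAA (the gamma-activated site) matched Psmb8 alone and 7.02% of all promoters. None of the 7 held TGACGTCA, TGACGT or CACGTG, which matched 1.55%, 6.47% and 6.02% of all promoters. TGACGT lies within TGACGTCA, so those matches are not separate. The RefSeq starts of Tap1 and Psmb9 lie 226 bases apart and point away from each other. Their 250-base stretches therefore cover mostly the same bases. The CCAAT match and the loose NF-kB matches of Tap1 are the same bases as those of Psmb9. The counts of 5 of the 7 and 6 of the 7 thus include this stretch 2 times. A match is a description of the letters and not a bound site, and the lack of a match to a fixed pattern does not show that an element is missing.

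In the 12 control retinas, B2m was the most abundant member per length of transcript. Median levels per kilobase of exon were 223 CPM for B2m, 86.0 for H2-D1, 69.1 for H2-K1, 36.2 for Tapbp, 7.69 for Tap2, 6.33 for Psmb8, 4.09 for Tap1 and 1.54 for Nlrc5. The chains that reach the cell surface thus stood above the loading machinery and its regulator. The spread between these 12 retinas was wide. B2m ran from 69.9 to 511 CPM (median 192), a range of 7.30-fold. Nlrc5 ran 11.6-fold, Tap1 9.72-fold, Psmb8 7.18-fold, H2-K1 4.98-fold, Tap2 3.88-fold, Tapbp 3.70-fold and H2-D1 3.46-fold. Over the same retinas the constitutive subunits Psmb5, Psmb6 and Psmb7 ran 1.31-fold, 1.32-fold and 1.40-fold. All 8 members had their highest control value in the same library, UNC0642 control replicate 1, and their lowest in DZNep control replicate 4 or UNC1999 control replicate 3.

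Between groups, mean B2m CPM went from high to low in the order UNC0642 controls (378 ± 189, SD, n = 2), Romidepsin controls (316 ± 113, n = 3), UNC0642 (223 ± 97.2, n = 2), DZNep controls (159 ± 62.1, n = 4), Romidepsin (143 ± 29.8, n = 3), UNC1999 controls (121 ± 45.6, n = 3), DZNep (61.4 ± 14.3, n = 2) and UNC1999 (49.5 ± 11.2, n = 3). Rod controls (11 ± 4.36, n = 2) and GSK2879552-treated rods (4.38 ± 0.233, n = 2) came last. Neighbours in this order overlapped in their libraries, except that the UNC1999 group stood above the rod controls and the rod controls above the treated rods. The UNC0642 controls thus exceeded the UNC1999 controls in mean B2m by more than any treatment moved it in a retina experiment.

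**Figure D2:**
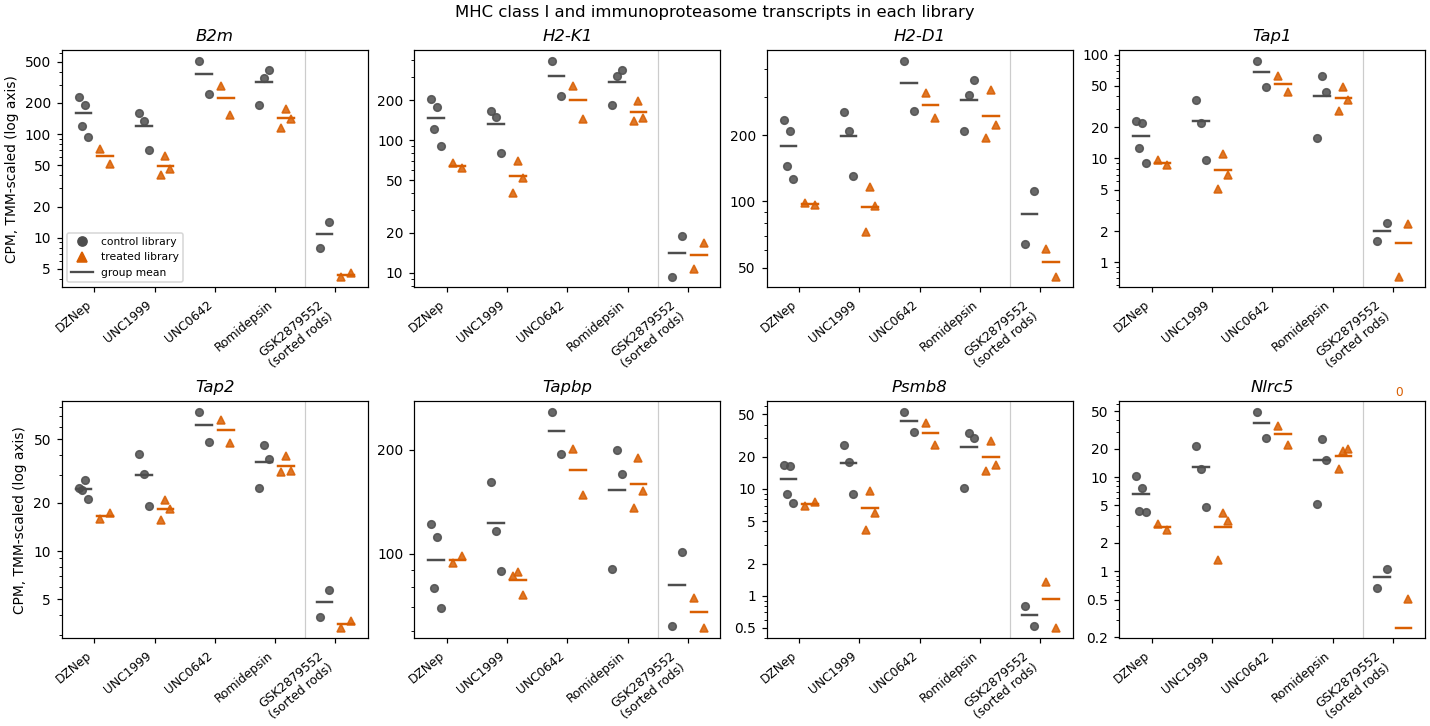
CPM (TMM-scaled, log axis) of the 8 members with counts in each library, by experiment, with circles for controls, triangles for treated libraries and lines for group means; a 0 above a panel marks a library with no count. For B2m the DZNep libraries (51.3 and 71.6 CPM) lie below all 4 controls (94.4 to 228 CPM), and the UNC1999 libraries (40.4 to 62.1 CPM) below all 3 (69.9 to 158 CPM).

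DZNep was followed by lower levels of both heavy chains, of B2m and of Tap2. By the quasi-likelihood test of edgeR with Benjamini-Hochberg adjustment over all genes, 4 of the 8 tested members fell, against 9.72% of all 16477 genes called lower. The likelihood ratio test called 5 lower, against 9.52% of all genes, and DESeq2 called 5, against 10% of all genes that it gave an adjusted p. Unadjusted p was under 0.05 for 7, against 17.2% of all genes lower at that level. None of the members rose by these 3 tests, where the quasi-likelihood test called 12.9% of all genes higher. B2m, the light chain shared by all class I molecules, was at 228, 121, 193 and 94.4 CPM in the controls and at 71.6 and 51.3 CPM after DZNep. Both treated libraries lay below every control, a log2 fold change of −1.35 ± 0.34 (SE; adjusted p = 0.0214 by edgeR).

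H2-K1, the K heavy chain, was at 203, 122, 177 and 89.8 CPM in the controls and at 66.9 and 61.6 CPM after DZNep. The groups did not overlap, and the log2 fold change was −1.20 ± 0.29 (adjusted p = 0.0190 by edgeR). H2-D1, the D heavy chain, was at 235, 146, 209 and 126 CPM in the controls against 98.7 and 96.4 CPM, a log2 fold change of −0.87 ± 0.23 (adjusted p = 0.0253 by edgeR). Tap2 was the least variable member among these controls, at 24.8, 24, 27.9 and 21.1 CPM, against 15.8 and 17.2 CPM after DZNep. Its fall, of 0.57 ± 0.11 on the log2 scale, was the smallest of the 4 in size and had the lowest adjusted p (0.00740 by edgeR).

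The other 4 members did not pass the test. Nlrc5 was at 10.2, 4.42, 7.57 and 4.28 CPM in the controls and at 3.18 and 2.75 CPM after DZNep, without overlap (log2 fold change −1.13 ± 0.37, adjusted p = 0.0568 by edgeR). Tap1 had a log2 fold change of −0.84 (adjusted p = 0.120 by edgeR) and Psmb8 one of −0.77 (adjusted p = 0.127), and in both a control library lay within the treated range. Tapbp was at 95.8 ± 24.9 CPM (SD, n = 4) in the controls and at 96.1 ± 3.12 CPM (n = 2) after DZNep. Its log2 fold change was 0.01, with a 95% interval from −0.44 to 0.45, and the sign changed without DZNep replicate 2, control replicate 2 or control replicate 4.

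The groups lay apart, treated lower, for 5 of the 8 members, against 21.5% of all genes, and the members' median log2 fold change was −0.86, against −0.00 over all genes. Of the 8, 7 had fold changes below 0, against 50.1% of all genes. With the added fold threshold of the study (an absolute log2 fold change above 1), B2m and H2-K1 remained, against 0.686% of all genes. The count of 4 rested on single libraries. It was 0 without DZNep replicate 1, 1 without DZNep replicate 2, 2 without control replicate 3 and 7 without control replicate 4, where 1.67%, 4.47%, 6.34% and 7.23% of all genes were called lower, and it was 0 when all 22 retina libraries shared one fit.

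After UNC1999 all 8 members had log2 fold changes below 0, from −2.07 to −0.55, against 50.4% of all genes below 0. None of the 8 was called by the quasi-likelihood test of edgeR, where 0.101% of all 15775 genes were called lower and 0.501% higher. Unadjusted p was under 0.05 for all 8, against 11.9% of all genes lower at that level, and adjusted p ran from 0.0610 to 0.137. The likelihood ratio test of edgeR called 6 members lower, against 5.08% of all genes, and DESeq2 called 6, against 4.34%. The members' median log2 fold change was −1.29, and −0.00 over all genes.

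Nlrc5 had the lowest fold change of the members. It was at 21.4, 12.2 and 4.86 CPM in the controls and at 1.30, 4.19 and 3.40 CPM after UNC1999, a log2 fold change of −2.07 ± 0.56 (adjusted p = 0.0836 by edgeR). The groups did not overlap, although the lowest control and the highest treated library lay close together. B2m was at 158, 134 and 69.9 CPM against 40.4, 62.1 and 46.1 CPM (log2 fold change −1.28 ± 0.29, adjusted p = 0.0615 by edgeR). H2-K1 was at 166, 149 and 79.8 CPM against 39.9, 69.3 and 51.6 CPM (−1.29 ± 0.29, adjusted p = 0.0610 by edgeR). H2-D1 was at 254, 209 and 131 CPM against 72.4, 117 and 95.1 CPM (−1.06 ± 0.25, adjusted p = 0.0676 by edgeR). In each of these 4 genes, control replicate 3 was the lowest control and stood nearest to the treated libraries.

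Tap1 and Psmb8 had wider errors than B2m and the heavy chains. Tap1 was at 36.7, 21.9 and 9.57 CPM in the controls and at 5.09, 11.1 and 7.00 CPM after UNC1999 (log2 fold change −1.54 ± 0.47, adjusted p = 0.104 by edgeR). Psmb8, the immunoproteasome subunit that replaces Psmb5, was at 25.6, 18 and 8.95 CPM against 4.16, 9.60 and 5.98 CPM (−1.40 ± 0.41, adjusted p = 0.0957 by edgeR). In both, UNC1999 replicate 2 lay above control replicate 3. Tap2 (−0.71) and Tapbp (−0.55) had the fold changes nearest to 0, and of these Tapbp alone had groups that lay apart. The groups lay apart, treated lower, for 5 of the 8 members, against 13.6% of all genes. Without control replicate 3, all 8 members were called lower, against 8.50% of all genes.

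**Figure D3:**
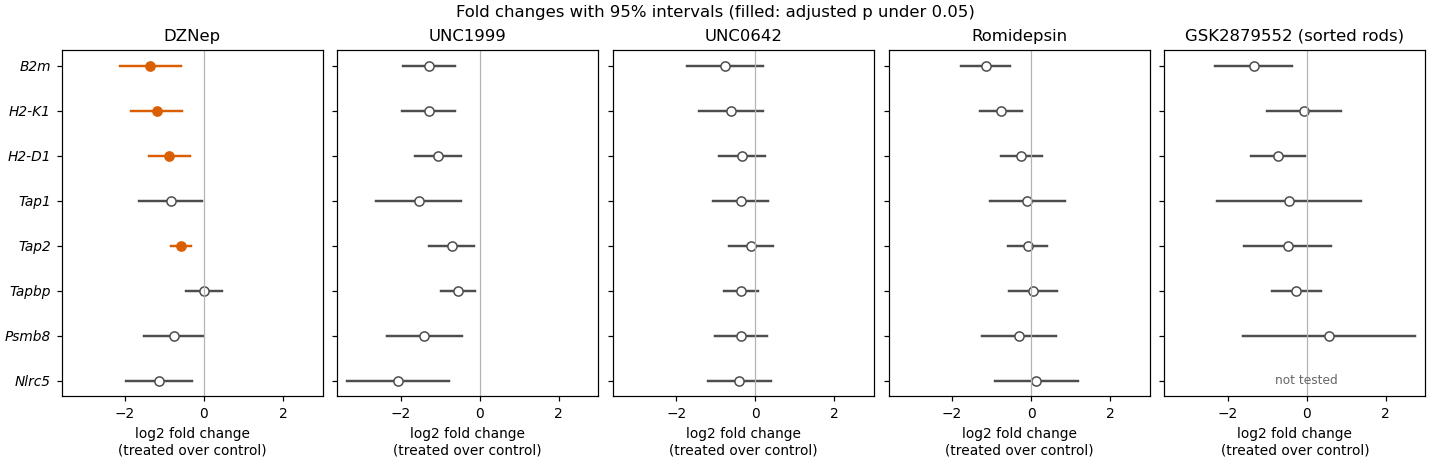
Log2 fold changes (treated over control) of the members with 95% intervals from the quasi-likelihood fit of each experiment; filled points have an adjusted p under 0.05. B2m, H2-K1, H2-D1 and Tap2 after DZNep are the filled points, all 8 intervals lie below 0 after UNC1999, and all 8 cross 0 after UNC0642.

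After UNC0642 all 8 log2 fold changes were below 0, against 50.3% of all genes, but none was called by the quasi-likelihood or likelihood ratio test of edgeR or had an unadjusted p under 0.05. DESeq2 gave an adjusted p for 6 of the 8 and called none, against 1.11% of all genes with one. With no filter on low counts, edgeR called B2m, H2-K1 and Tapbp lower, against 2.63% of all genes. No gene of the 16321 tested was called by the quasi-likelihood test (0%), the likelihood ratio test called 0.288% of them lower, and 6.80% were lower at an unadjusted p under 0.05. B2m was at 511 and 244 CPM in the controls and at 292 and 154 CPM after UNC0642 (log2 fold change −0.76, 95% interval −1.72 to 0.20). H2-K1 was at 397 and 216 CPM against 254 and 145 CPM (−0.62, interval −1.44 to 0.20). For both, one treated library lay above the lower control, as was the case for all 8 members, and the groups lay apart, treated lower, for 25.2% of all genes. The other folds ran from −0.40 (Nlrc5) to −0.11 (Tap2), and the median was −0.37. The 2 controls differed from each other by more than the group means did for each member, and without control replicate 1 the fold changes of H2-D1, Tap1, Tap2 and Nlrc5 were above 0.

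After Romidepsin, B2m had the lowest log2 fold change of the members (−1.15), and those of the others ran from −0.76 to 0.14. No member was called by the quasi-likelihood test of edgeR, where 0.174% of all 16049 genes were called lower and 0.573% higher. Unadjusted p was under 0.05 for 2 members, against 9.46% of all genes lower at that level. The likelihood ratio test called 2 lower, against 3.29% of all genes, and DESeq2 also called 2, against 2.97%. B2m was at 192, 346 and 411 CPM in the controls and at 114, 174 and 141 CPM after Romidepsin, a log2 fold change of −1.15 ± 0.27 (adjusted p = 0.0784 by edgeR). It was the only member whose groups lay apart, against 12.5% of all genes with the treated libraries lower, and without control replicate 1 it was called, against 0.366% of all genes.

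H2-K1 was at 183, 304 and 338 CPM in the Romidepsin controls against 140, 199 and 147 CPM (log2 fold change −0.76 ± 0.23, adjusted p = 0.124 by edgeR). Treated replicate 2 lay above control replicate 1. H2-D1 was at 210, 305 and 357 CPM against 195, 320 and 222 CPM, a log2 fold change of −0.24. Psmb8 (−0.30), Tap1 (−0.09), Tap2 (−0.09), Tapbp (0.05) and Nlrc5 (0.14) had 95% intervals on both sides of 0. These were wide, from −1.23 to 0.62 for Psmb8, −1.03 to 0.85 for Tap1 and −0.91 to 1.18 for Nlrc5. Nlrc5 was at 5.20, 25.6 and 15.2 CPM in these controls and at 12.1, 18.9 and 19.8 CPM after Romidepsin. Control replicate 1 was the lowest control for all 8 members. Of the 8, 6 had fold changes below 0, against 51.1% of all genes, and the members' median log2 fold change was −0.17, against −0.01 over all genes.

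In the sorted rods, levels were low for most members. As a share of the median of the 12 control retinas, the mean of the 2 rod controls was 3.84% for Psmb8, 5.71% for B2m, 7.68% for Nlrc5, 7.85% for H2-K1, 8.95% for Tap1, 16.5% for Tap2, 39.4% for H2-D1 and 68.3% for Tapbp. H2-D1 and Tapbp had the highest shares of the members, at 64.1 and 111 CPM and at 61.8 and 101 CPM in the rod controls. By the same measure the constitutive subunits Psmb5, Psmb6 and Psmb7 stood at 64.6%, 128% and 43.6% of their retina medians. The kits may differ, and these shares were not tested. Markers of other cells were also present in the rod controls. They summed to 448 to 669 CPM for Müller glia, 501 to 744 CPM for inner neurons, 51.9 to 57 CPM for endothelial cells and 77.6 to 98.1 CPM for microglia. The part of such cells in the members' levels in the rod libraries was not tested.

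After GSK2879552, none of the 7 tested members was called in the rods by the quasi-likelihood test or the likelihood ratio test. DESeq2 gave an adjusted p for 6 and called none, against 0.125% of all genes. The quasi-likelihood test called 0% of all 14478 genes, and the likelihood ratio test called 0.173% of them lower. Of the 7, 6 had fold changes below 0, against 51.2% of all genes. Unadjusted p was under 0.05 for 2 members, against 2.13% of all genes lower at that level. B2m was at 7.89 and 14.1 CPM in the controls and at 4.21 and 4.54 CPM after GSK2879552, a log2 fold change of −1.34 ± 0.42 (adjusted p = 0.940 by edgeR). H2-D1 was at 64.1 and 111 CPM against 60.5 and 45.5 CPM (−0.73 ± 0.30, adjusted p = 0.987 by edgeR). For these 2 and Tap2 the treated libraries lay below both controls, as did those of 17.3% of all genes. H2-K1 (−0.07), Tapbp (−0.26), Tap1 (−0.45) and Psmb8 (0.56) overlapped between the groups. Psmb8 was at 0.505 to 1.35 CPM in the 4 rod libraries, near the floor. Nlrc5 had 5 and 18 counts in the controls and 0 and 5 counts in the treated libraries, and was not tested.

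A member called in one experiment and not in another is not shown to respond differently, so the effects of the retina treatments were set against each other in one fit of all 22 retina libraries. In 6 pairs of treatments, 0 of the 8 members differed by the quasi-likelihood test of edgeR. Of all 17274 genes, the test called 0.00579% between DZNep and UNC1999, 0.0232% between DZNep and UNC0642, 0.289% between DZNep and Romidepsin, 0.0116% between UNC1999 and UNC0642, 5.11% between UNC1999 and Romidepsin and 0.0174% between UNC0642 and Romidepsin. Unadjusted p was under 0.05 for 2 members, both in the pair of UNC1999 and Romidepsin, and the likelihood ratio test called 1 member there and 0 in the other pairs. The shares above are those of the quasi-likelihood test. The share of all genes called by the likelihood ratio test is not given here, so its 1 call cannot be weighed against it. The effect on Nlrc5 was lower with UNC1999 than with Romidepsin by −2.20 ± 0.76 on the log2 scale (adjusted p = 0.0988 by edgeR), and that on Tap1 by −1.45 ± 0.68 (adjusted p = 0.219 by edgeR). For B2m the same difference was −0.14, with a 95% interval from −1.25 to 0.97.

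The labels name both DZNep and UNC1999 as EZH2 inhibitors. DZNep is a nucleoside analog known to act indirectly, through S-adenosylhomocysteine hydrolase, and so on other methyltransferases too, whereas UNC1999 binds EZH2 itself. Their doses, schedules and diluents differed, so their values are set side by side. Log2 fold changes with DZNep and UNC1999 were −1.35 and −1.28 for B2m, −1.20 and −1.29 for H2-K1, −0.87 and −1.06 for H2-D1, −1.13 and −2.07 for Nlrc5 and 0.01 and −0.55 for Tapbp. Over the 8 members the difference, DZNep minus UNC1999, ran from −0.08 to 0.93, with adjusted p from 0.706 to 0.990 by edgeR. For B2m its 95% interval ran from −1.24 to 1.07, wide enough to hold a difference of more than 2-fold either way.

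Transcripts of immunoproteasome subunits were set against those of their constitutive counterparts by ratios of counts within a library, which need no scaling between libraries. Such ratios of RNA in bulk libraries do not measure which subunits sit in a proteasome. The transcripts of a pair can come from different cells, and a ratio can change through either of them. In control retinas Psmb8 was mostly below Psmb5, with log2 ratios from −2.45 to 0.13, and only UNC0642 control replicate 1 had more counts of Psmb8 than of Psmb5. Mean log2 ratios of Psmb8 to Psmb5 were −1.81 in the DZNep controls and −2.46 after DZNep, and −1.51 in the UNC1999 controls and −2.75 after UNC1999. They were −0.24 and −0.87 for UNC0642, −1.02 and −1.31 for Romidepsin and −5.27 and −4.05 in the rods, where the counts of Psmb8 were few. Mean Psmb5 CPM, controls then treated, was 40.8 and 40.1 for DZNep, 45.8 and 41.8 for UNC1999 and 50.2 and 60.3 for UNC0642. For Romidepsin the Psmb5 means were 44.3 and 48.1 CPM, and in the rods 27.9 and 14.6 CPM. The ratio of Psmb10 to Psmb7 differed between treated and control means by −0.31, −0.84, −0.24, −0.21 and −0.29 for DZNep, UNC1999, UNC0642, Romidepsin and the rods. In DZNep and UNC1999 this ratio was lower in every treated library than in every control. By two-sided exact permutation tests, adjusted p over the 10 tests was 0.667 to 1, and with 3 against 3, 4 against 2 and 2 against 2 libraries no p can fall below 0.1, 0.133 and 0.333.

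**Figure D4:**
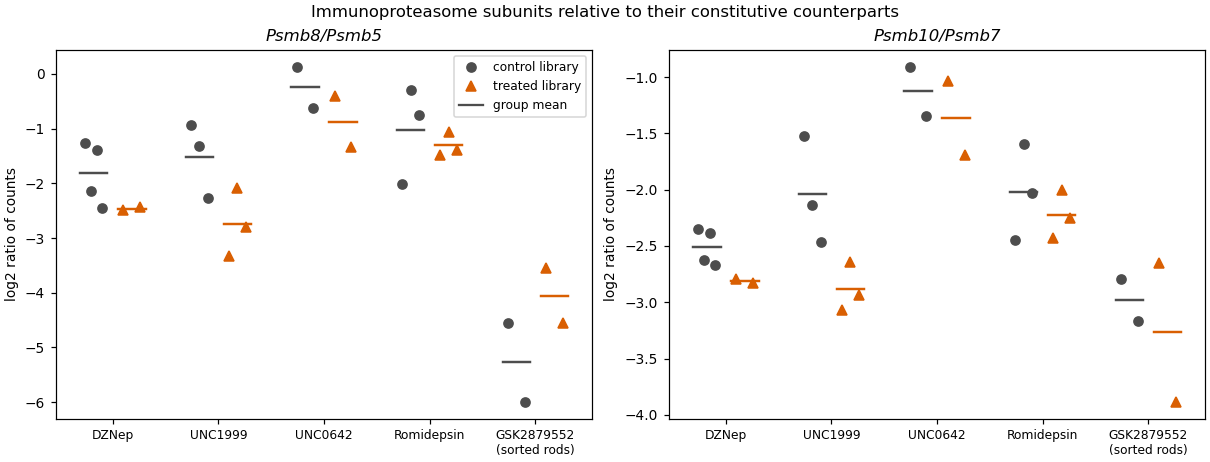
Log2 ratios of counts of Psmb8 to Psmb5 and of Psmb10 to Psmb7 in each library, with circles for controls, triangles for treated libraries and lines for group means. In the UNC1999 experiment all 3 treated ratios of Psmb10 to Psmb7 lie below all 3 controls, and the rods have the lowest ratios of Psmb8 to Psmb5.

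The constitutive core, 14 subunits, lay nearer to 0 than the members in the retina experiments. Its median log2 fold changes were 0.01 (DZNep), −0.06 (UNC1999), 0.21 (UNC0642), 0.14 (Romidepsin) and −0.46 (rods), with 0 called in any comparison by edgeR. Psmb5, Psmb6 and Psmb7 lay between −0.13 and 0.26 in the retina experiments. The core was not evenly spread around 0 in each of them. Fold changes were above 0 for 14 of the 14 after UNC0642 and for 13 after Romidepsin. After DZNep 7 were above 0, and after UNC1999 2 were. Of all genes, 50.1%, 50.4%, 50.3% and 51.1% were below 0 for DZNep, UNC1999, UNC0642 and Romidepsin. In the rods all 14 were below 0, as were 6 of the 7 tested members, and Psmb5 had a log2 fold change of −0.94 (adjusted p = 0.987 by edgeR).

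Of the 12 partners of class I processing, 1 was called. Npepps, a cytosolic aminopeptidase, rose after DZNep (log2 fold change 0.20, adjusted p = 0.0165 by edgeR), 1 of 12 where 12.9% of all genes were called higher. Psmb10, the third immunoproteasome subunit, had log2 fold changes of −0.32 (DZNep), −0.86 (UNC1999), −0.03 (UNC0642), −0.07 (Romidepsin) and −0.91 (rods). Psme1, a subunit of the PA28 activator of the proteasome, had −0.26 (adjusted p = 0.0536 by edgeR) after DZNep and −0.56 (adjusted p = 0.0731) after UNC1999, and lay between −0.39 and 0.06 in the others. Psme2, its partner, ran from −0.39 to 0.10. Erap1, which trims peptides in the endoplasmic reticulum, had −0.22, −0.64, −0.32, −0.26 and −0.89 in the same order. Tapbpl, a peptide editor related to tapasin, ran from −0.59 to −0.04. The general chaperones Calr, Canx and Pdia3 ran from −0.44 to 0.15, and Calr was at −0.44 after Romidepsin (adjusted p = 0.239 by edgeR).

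The other class I and class I-like genes, 16 by symbol with 13 tested in each retina experiment, included 6 of 13 called lower after DZNep, against 9.72% of all genes. All 13 had fold changes below 0 there, against 50.1% of all genes, with a median of −0.78. H2-Q6 was at 14.5 ± 5.85 CPM (SD, n = 4) in the controls and at 3.86 ± 0.403 CPM (n = 2) after DZNep, a log2 fold change of −1.88 (adjusted p = 0.00945 by edgeR). H2-Q7 fell by 1.54 on the log2 scale (adjusted p = 0.0178). H2-Q8 (−1.84) and H2-Q2 (−1.58) fell at levels under 3 CPM, H2-Q2 reaching 0.223 and 0.263 CPM after DZNep, near the floor. The H2-Q genes are near-identical copies, and reads that fit more than one of them may have been left out or placed in another. Medians were −0.71 after UNC1999, −0.65 after UNC0642, −0.53 after Romidepsin and 0.08 in the rods (7 tested), with 0 called in each by edgeR.

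Of the regulators of MHC transcription, 16 were tested after DZNep and 3 rose, a share near the 12.9% of all genes called higher there. They were Nfya (0.41, adjusted p = 0.00328 by edgeR) and Nfyc (0.18), subunits of the factor that binds CCAAT, and Creb1 (0.26). Rfx5, which binds the X box of MHC promoters, ran from −0.34 to 0.21 over the 5 comparisons. Irf1, an interferon-induced activator of class I genes, had log2 fold changes of −0.39, −0.45, 0.12, 0.60 and −0.26 for DZNep, UNC1999, UNC0642, Romidepsin and the rods, with none called by edgeR. Ciita, the activator of class II genes, was tested in 3 comparisons and was at −1.96 after Romidepsin (0.968 against 0.253 CPM, adjusted p = 0.135 by edgeR).

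Among 20 targets of interferon gamma, 3 of 18 tested fell after DZNep, against 9.72% of all genes. Of the 18, 17 had fold changes below 0, against 50.1% of all genes, with a median of −0.88. Igtp fell by 1.03 (adjusted p = 0.0374 by edgeR) and Gbp7 by 0.84 on the log2 scale (adjusted p = 0.0241), both GTPases induced by interferon. Gbp8 (−2.77) was called at 0.0292 and 0.223 CPM after DZNep, at or below the floor in one library. Medians in the other comparisons were −0.98 (UNC1999), −0.65 (UNC0642), −0.95 (Romidepsin) and −0.81 (rods), with 0 called by edgeR. Of the 10 tested interferon ligands, receptors and kinases, the receptor chain Ifnar2 fell after DZNep (−0.46), the kinase Jak2 (0.21) and the phosphatase Ptpn2 (0.26) rose, and the feedback inhibitor Socs3 rose after Romidepsin (2.79, adjusted p = 0.0354 by edgeR). These counts, 1 lower and 2 higher after DZNep, lie near the shares of all genes called there (9.72% lower and 12.9% higher).

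Of the class II genes, 4 of 6 tested were called lower after DZNep, against 9.72% of all genes, with a list median of −2.36 beside −0.86 for the members. Cd74, the invariant chain, was at 13.2 ± 8.68 CPM (SD, n = 4) against 1.08 ± 0.370 CPM (n = 2), H2-Aa had a log2 fold change of −3.74, H2-Eb1 one of −3.14 and H2-DMa one of −0.46. After UNC1999 the list median was −2.47, with 0 called by edgeR. The receptors that read class I on T and NK cells were close to the floor: the 14 genes together summed to at most 10.2 CPM in any library, and 2 or 3 of them could be tested in a comparison, with 0 called by edgeR.

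Most microglia markers had fold changes below 0 in each of the 4 retina experiments, also where no member was called. The 20 microglia markers summed to 345 to 689 CPM in the DZNep controls and to 279 to 310 CPM after DZNep. The sums were 349 to 600 against 211 to 269 CPM for UNC1999, 986 to 1443 against 600 to 923 CPM for UNC0642 and 668 to 1092 against 541 to 743 CPM for Romidepsin, where the groups overlapped. No microglia marker was at 0 in any retina library. Of the 20, 19, 19, 20 and 19 had fold changes below 0 in these 4 experiments, with medians of −0.76, −1.20, −0.65 and −0.73. Of all genes, 50.1%, 50.4%, 50.3% and 51.1% were below 0. After DZNep 2 of the 20 were called lower, Ptprc (−1.21) and Mpeg1 (−1.27), a share near the 9.72% of all genes. After Romidepsin 2 were called lower, Mpeg1 (−1.31) and Ctss (−0.89), against 0.174% of all genes. The library with the highest control level of all 8 members, UNC0642 control replicate 1, also had the highest microglia sum of the 22 retinas, 1443 CPM. The part of these cells in the members' levels was not tested.

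In the rods the microglia sum was 77.6 to 98.1 CPM in the controls and 79.8 to 82.2 CPM after GSK2879552. Csf1r was at 18.2 to 26.8 CPM. Tmem119, Trem2, Ptprc and Siglech were at 0 in at least 1 of the 4 libraries.

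Other cell types moved as well. The 17 rod markers summed to 22031 to 36477 CPM in the DZNep controls and to 66269 to 68481 CPM after DZNep. All 17 were called higher there, against 12.9% of all genes. They summed to 23524 to 43893 against 59044 to 79852 CPM for UNC1999, 11068 to 11379 against 11572 to 16916 CPM for UNC0642 and 18995 to 30116 against 29002 to 39044 CPM for Romidepsin. The 12 endothelial markers summed to 767 to 810 against 613 to 635 CPM for DZNep, 555 to 615 against 397 to 488 CPM for UNC1999, 880 to 975 against 785 to 820 CPM for UNC0642 and 817 to 1013 against 693 to 711 CPM for Romidepsin. Kdr weighed heavily in these sums, with a mean of 520 CPM in the DZNep controls beside 793 CPM for all 12. By gene, 11, 6, 4 and 4 of the 12 had fold changes below 0 in these experiments, against 50.1%, 50.4%, 50.3% and 51.1% of all genes. Their median log2 fold changes were −0.19, −0.02, 0.05 and 0.19, so most endothelial markers did not fall after UNC0642 or Romidepsin. Of the 12 Müller glia markers, 10 were called lower after DZNep, against 9.72% of all genes. The 12 summed to 11612 to 12019 against 8200 to 9021 CPM for DZNep, 7412 to 9170 against 6706 to 8196 CPM for UNC1999, 10201 to 11329 against 8418 to 8603 CPM for UNC0642 and 11913 to 14131 against 8918 to 10072 CPM for Romidepsin.

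Of the 12 inner neuron markers, 8 were called lower after DZNep and 1 after Romidepsin, against 9.72% and 0.174% of all genes. The 12 summed to 3240 to 3784 against 2894 to 2979 CPM for DZNep, 2706 to 2929 against 2620 to 2790 CPM for UNC1999, 3226 to 3307 against 3214 to 3311 CPM for UNC0642 and 3397 to 3809 against 2702 to 2844 CPM for Romidepsin. Sums of the 12 RPE markers were higher after some treatments and lower after Romidepsin. Of them 7 were called higher after DZNep (71.5 to 190 against 232 to 381 CPM) and 7 after UNC1999 (141 to 163 against 438 to 495 CPM), while their sums were 90.02 to 197 against 193 to 229 CPM for UNC0642 and 121 to 135 against 66.3 to 83.8 CPM for Romidepsin, with 0 called by edgeR. Of all genes, 12.9% were called higher after DZNep and 0.501% after UNC1999. The 5 blood markers summed to 35.9 to 107 against 65.6 to 145 CPM for DZNep, where Hbb-b1 was called higher, and to 86.1 to 89.96 against 42.3 to 70.7 CPM for Romidepsin. The part of these shifts in the members' levels was not tested.

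**Figure D5:**
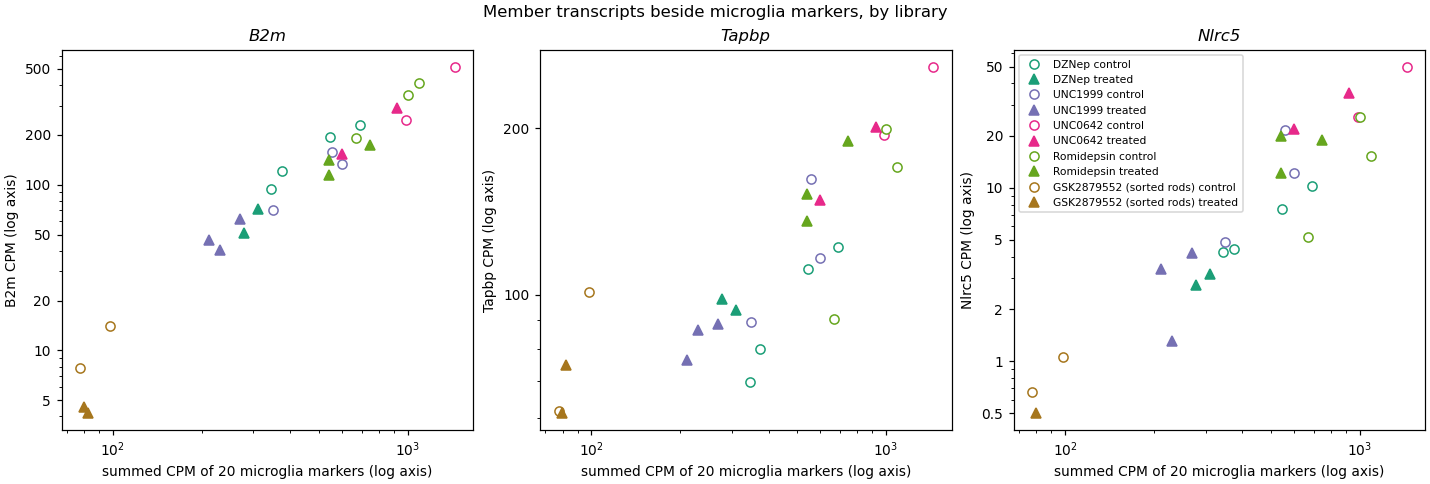
CPM of B2m, Tapbp and Nlrc5 in each library against the summed CPM of 20 microglia markers (both axes log), with open circles for controls and filled triangles for treated libraries, coloured by experiment; a library with no count of Nlrc5 is left out. The point at 1443 CPM of microglia markers, UNC0642 control replicate 1, is also the highest for all 3 genes.

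Over the 22 retina libraries, with each gene centred on the mean of its experiment, the members varied together. Pearson's r between pairs of the 8 members was 0.65 to 0.98 with a median of 0.89 over 28 pairs. B2m and H2-K1 were the pair with the highest r, and B2m and Tapbp the pair with the lowest. Among 17266 genes, those most like the mean of the members were Shisa5 (r = 0.97), Cyp4f18 (0.96), Ifi35 (0.96), Gbp6 (0.96), Bst2 (0.95), Nckap1l (0.95), Cd52 (0.95) and Lgals9 (0.95), and the median r of all genes was −0.02. Of these 8, 2 were also among the 8 with the highest Spearman's rho. The libraries share treatment groups and cell makeup, so that these values describe likeness over the 22 libraries and carry no test.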

How the data were processed

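RNA-seq of 22 retinas and 4 samples of sorted rods was analysed. Per the authors' methods and the submitters' processing notes, BBDuk removed adapters and low-quality bases, HISAT2 2.2.1 placed the reads on NCBIM37 with Ensembl 67 genes, and HTSeq 0.11.2 counted them. The deposited values are raw counts. Depth was 13732959 to 36354094 counts per retina library and 7289460 to 19864491 per rod library.

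Groups follow the titles of the samples. Some other labels number the genotype and the drug upwards from library to library, which was taken as a filling error. Symbols and positions came from GENCODE M1 on the same build, and 37205 genes had a symbol. Of 23 pairs of replicates, none were copies (chi-square per gene at least 3.89).

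Each treatment was compared with its own controls in edgeR 4.0.16 (R 4.3.3): filterByExpr, TMM and the quasi-likelihood F test, without replicate as a block, with Benjamini-Hochberg adjustment over all genes tested and a threshold of 0.05. The study used the likelihood ratio test and a fold threshold, which were alternatives, as were a block for replicate, one fit of all 22 retina libraries, omission of each library in turn, RLE scaling, a stricter filter (10 counts in each library), no filter, and DESeq2 1.42.0. Treatment effects were compared as contrasts in the 22-library fit. Ratios of subunits (0.5 added to each count) were compared by exact permutation; Psmb9 to Psmb6 has no value, so that 10 ratio tests replaced the 15 planned. Log2 CPM for correlations used a prior count of 2. The fits were tested on simulated data. Scaling factors of a comparison and of the 22 libraries differed by at most 0.107 on the log2 scale.

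The members, lists and tests were chosen with earlier results of these data known. Named besides the members were 15 genes of the pathway (not all are reported here), up to 4 called genes of each list with the smallest p per comparison, and the 8 genes most like the members.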

Additional observations from a re-analysis of the deposited data

How the results depend on the processing

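Of the 4 members called lower after DZNep, 0 were called in the fit of all 22 retina libraries and 2 with the fold threshold added. Of all genes, 2.14% and 0.686% were called lower there. Leaving out one control gave 2 (without replicate 3) to 7 (without replicate 4), against 6.34% and 7.23% of all genes. The 0 called after UNC1999 became 6 with the likelihood ratio test, 6 with DESeq2, 5 with no filter on low counts and 4 in the fit of all 22 retina libraries. Of all genes, 5.08%, 4.34%, 2.17% and 4.21% were called lower there. With a library left out it was 0 to 8, the 8 without control replicate 3, against 8.50% of all genes. After UNC0642, 0 became 3 with no filter and 3 with the replicate block, against 2.63% and 2.11% of all genes called lower. After Romidepsin, 0 became 2 with the likelihood ratio test and 2 with DESeq2, against 3.29% and 2.97% of all genes called lower. It became 1 with no filter and 1 in the fit of all 22 retina libraries, against 1.11% and 8.38% of all genes. The second of these shares is near that of 1 member in 8. With a library left out it was 0 to 1, the 1 without control replicate 1, against 0.366% of all genes. In the rods 0 were called under each alternative. For the difference of UNC1999 and Romidepsin, 0 became 1 with the likelihood ratio test, whose share of all genes for this pair is not given here.

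With the replicate block, log2 fold changes that lay near 0 changed sign for Tapbp after DZNep (−0.0471), Tap1 after Romidepsin (0.0762) and H2-K1 in the rods (0.00128). Leaving out one library reversed 18 fold changes, none of them called. The ranges with one library left out were −0.12 to 0.14 for Tapbp after DZNep. After UNC0642 they were −0.67 to 0.0865 for H2-D1, −0.73 to 0.11 for Tap1, −0.38 to 0.24 for Tap2 and −0.80 to 0.15 for Nlrc5. After Romidepsin they were −0.47 to 0.36 for Tap1, −0.30 to 0.14 for Tap2, −0.21 to 0.29 for Tapbp and −0.27 to 0.73 for Nlrc5. In the rods they were −0.47 to 0.54 for H2-K1, −1.47 to 0.20 for Tap1 and −0.57 to 0.14 for Tapbp. The cause was not tested. Where one library was left out of a pair, the lone sample was assumed to vary like the other group. RLE normalization moved the median of all genes by less than 0.1.

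In no experiment of 3 pairs did every pair of the same replicate number correlate above 0.1, so that the numbers were not taken to pair the libraries. Correlations of deviations between libraries of the same number were −0.31, 0.27 and −0.06 for UNC1999, 0.26, −0.09 and −0.35 for Romidepsin and −0.23 and −0.00 for DZNep. UNC0642 and the rods, which like DZNep have 2 pairs, gave 0.23 and −0.0986, and so few pairs cannot settle whether the numbers pair them. The replicate block gave 6 calls after DZNep, against 3.01% of all genes called lower. It gave 3 after UNC0642 (B2m, H2-K1 and Tapbp), against 2.11% of all genes. It gave 0 after UNC1999, 0 after Romidepsin and 0 in the rods, against 0.0634%, 0.106% and 0.00691% of all genes. With the block, a DZNep control whose number no treated library shares carries no information on the treatment. The 6 calls after DZNep thus rest on 2 pairs. Low counts limit Psmb8 and Nlrc5 in the rods.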
